A study of Homo sapiens with 12 samples.

Results

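The genes described here are 27 members of the cholesterol synthesis and SREBP pathway, taken by symbol from a fixed list and matched to the Ensembl identifiers of the deposited files. Each of the 27 symbols matched 1 of the 60662 genes of the RNA count files and 1 of the 12224 genes of the series table of RNA and footprint signals. They comprise 8 enzymes of the mevalonate steps, 11 enzymes of the squalene and sterol steps, 7 genes of SREBP control and 1 sterol transfer protein. The list is defined by pathway membership and uses no measured value, and all 27 passed the filters on low values in RNA and in footprints.

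The cells were HEK293T, an established human embryonic kidney line, of wild-type genotype per the labels. One arm received 20 µM STM2457, a catalytic inhibitor of the m6A methyltransferase METTL3, dissolved in 0.2% DMSO, and the other arm received 0.2% DMSO alone, each for 6 h. Both arms were given an additional 10% of fetal bovine serum 1 h ahead of lysis and 100 µg/ml cycloheximide, which stalls elongating ribosomes, for the final 3 min. The study asked how translation changes when m6A is depleted. RNA-seq of polyadenylated RNA covered 4 STM2457 and 4 DMSO libraries, and ribosome profiling of fragments of 26 to 34 nt covered 2 STM2457 and 2 DMSO libraries. Nothing in the labels tells whether the replicates were grown as separate cultures, so a p-value here reflects library-to-library spread, possibly technical.

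The RNA files held 43291730 to 51645739 counts per library, and the table's footprint reads numbered 4039314 and 3898620 in the STM2457 libraries and 4711513 and 3198063 in the DMSO libraries. The ERCC spike-in sequences, RNAs of known amount that are added to a sample, took 0.415% to 0.466% of the counts in STM2457 libraries and 0.389% to 0.408% in DMSO libraries, and STM2457 replicate 4 was the highest. All 4 markers fixed for 293T cells were detected, at a summed 577 to 630 CPM, counts scaled by library size, in STM2457 libraries and 515 to 560 CPM in DMSO libraries. NEFM, LIN28B and NEFL made up nearly all of this sum. PAX2 had only 3.53 to 5.70 CPM in STM2457 libraries and 4.23 to 5.85 CPM in DMSO libraries. NEFL and NEFM were higher in every STM2457 library than in any DMSO library. The 4 hepatocyte markers summed to at most 0.686 CPM in STM2457 libraries and 0.508 CPM in DMSO libraries, with APOB at 0 in every library. The 4 fibroblast markers summed to 17.5 to 19.3 and 16.9 to 21.2 CPM, and the 4 blood markers to 2.06 to 2.21 and 2.01 to 2.33 CPM, in STM2457 and DMSO libraries in that order. METTL3 itself had 83.3 ± 6.71 CPM in STM2457 libraries and 75.7 ± 6.71 CPM in DMSO libraries (SD, n = 4 each; edgeR adjusted p = 0.104), and since STM2457 blocks the enzyme and not its RNA, this does not check the labels.

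Cholesterol is built from acetyl-CoA through mevalonate, isoprenoid diphosphates, squalene and lanosterol. The genes of the route are controlled together by the sterol regulatory element-binding proteins, transcription factors that are made as membrane-bound precursors of the endoplasmic reticulum. The precursors SREBF1 and SREBF2 bind the escort protein SCAP, which INSIG1 and INSIG2 hold in the endoplasmic reticulum when sterols are plentiful. When sterols are low, SCAP carries the precursor to the Golgi, where the site-1 protease MBTPS1 and then the site-2 protease MBTPS2 release the active factor. In the nucleus the factors act on sterol regulatory elements together with NF-Y and Sp1, and INSIG1 is itself one of their targets. Serum lipoproteins are a source of sterols for cultured cells, and both arms received the same serum.

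The RNA of the pathway moved in both directions. At an adjusted p under 0.05 (edgeR quasi-likelihood test, Benjamini-Hochberg adjustment over 17807 genes), 8 of the 27 members rose in STM2457 cells, where 26.2% of all genes tested rose, and 9 fell, where 21.6% of all genes fell. The other 10 members did not pass, and in either direction 63.0% of the members and 47.8% of all genes were called. The median log2 fold change was -0.01 over the members and 0.00 over all genes. The STM2457 libraries lay wholly above the DMSO libraries for 8 members and wholly below them for 8, against 24.9% and 19.8% of all genes, and the arms overlapped for 11 members. No member changed by 1.5-fold or more in RNA, and the share of all genes that did was not counted.

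**Figure D1:**
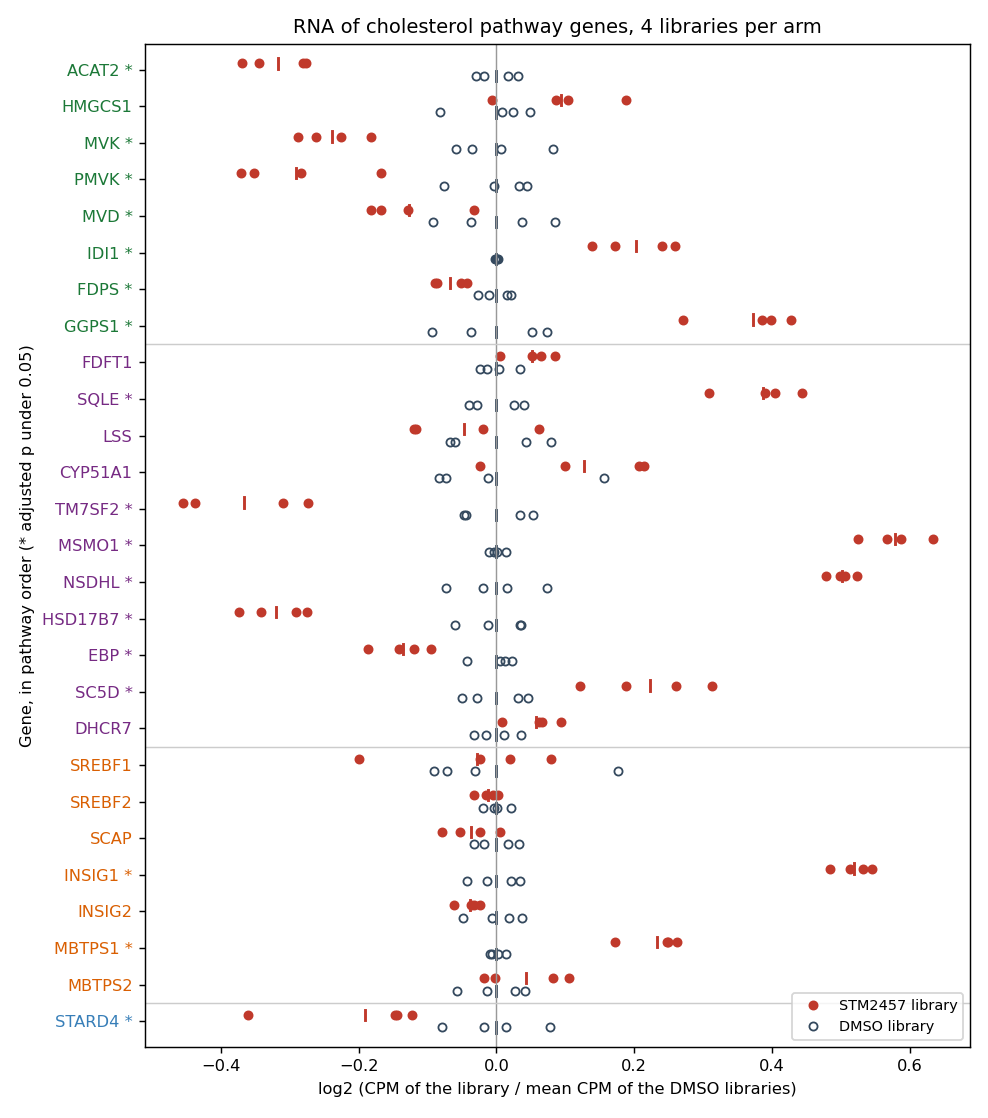
RNA of the 27 genes in each library as log2 of the library's CPM over the mean CPM of the DMSO libraries, with filled red points for the 4 STM2457 libraries, open dark points for the 4 DMSO libraries and a vertical tick for each arm's mean. Label colours mark the mevalonate, sterol, SREBP control and transfer groups, asterisks mark the 17 called genes, and MSMO1, INSIG1 and NSDHL lie farthest right while TM7SF2, HSD17B7 and ACAT2 lie farthest left.

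Promoter sequence was examined because the members are known to share transcription factors and yet moved in both directions. RefSeq windows of 250 bases before to 50 bases after a start were held for 24 of the 27 members, and a gene was counted if any of its windows, on either strand, contained the motif. The CCAAT box bound by NF-Y (CCAAT) was in 17 of the 24 (70.8%), against 39.7% of 27305 genes, and the Sp1 box (GGGCGG) was in 21 of the 24 (87.5%), against 48.3%. The 27305 genes were not limited to those that passed the RNA filter, as all members did. The share among expressed genes alone was not counted. The core of the sterol regulatory element (TCACNCCAC) was in 1 of the 24, SREBF2, against 1.39% of all genes. Only this exact pattern was searched, so a window without it may still hold a variant of the element. ACAT2, SQLE and FDFT1 had no window. CCAAT boxes stood in 6 of the 7 members with a window that rose, 7 of the 8 that fell and 4 of the 9 that did not pass. Sp1 boxes stood in 5 of the 7, 8 of the 8 and 8 of the 9, in the same order. Of the stretches below, from RefSeq on GRCh38.p14, 3 show the windows with at least 4 CCAAT boxes before the start. Those of MSMO1 and NSDHL belong to genes that rose and that of MVK to one that fell. The other stretch shows the element before SREBF2, whose RNA in CPM differed by less than its replicate spread. All 4 are on the plus strand and read 5′ to 3′, and the capitals are the boxes, in either orientation, or the element.
MSMO1, chr4:165327474-165327649, 4 boxes: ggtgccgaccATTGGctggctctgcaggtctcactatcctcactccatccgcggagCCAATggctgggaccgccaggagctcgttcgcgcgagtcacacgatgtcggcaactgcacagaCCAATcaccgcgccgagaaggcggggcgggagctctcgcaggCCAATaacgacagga
NSDHL, chrX:152830825-152830993, 5 boxes with a pair that overlap: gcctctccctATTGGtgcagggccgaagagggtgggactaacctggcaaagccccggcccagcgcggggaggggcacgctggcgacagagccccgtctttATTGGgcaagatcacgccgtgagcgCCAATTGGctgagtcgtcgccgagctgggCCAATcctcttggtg
MVK, chr12:109573574-109573762, 5 boxes: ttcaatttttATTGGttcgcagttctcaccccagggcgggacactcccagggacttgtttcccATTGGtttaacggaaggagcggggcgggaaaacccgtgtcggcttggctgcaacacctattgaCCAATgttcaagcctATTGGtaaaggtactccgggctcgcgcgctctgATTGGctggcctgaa
SREBF2, chr22:41832962-41832990, 1 element: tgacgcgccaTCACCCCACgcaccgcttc
These matches describe letters in a window and are not binding data.

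Of the 8 mevalonate-step enzymes, 2 rose (IDI1 and GGPS1), 5 fell (ACAT2, MVK, PMVK, MVD and FDPS) and HMGCS1 did not pass. ACAT2 (ENSG00000120437.8), the cytosolic thiolase that joins acetyl-CoA units at the head of the route, had 94.1, 98.7, 92.5 and 98.4 CPM in STM2457 libraries, against 122, 121, 118 and 117 CPM in DMSO libraries. The arms did not overlap, and ACAT2 fell by 0.32 on the log2 scale (SE 0.03, adjusted p = 1.49e-06). MVK, mevalonate kinase, had 18.9, 18.5, 20.0 and 19.4 CPM in STM2457 libraries, against 24.0, 22.7, 22.1 and 21.7 CPM in DMSO libraries. PMVK, phosphomevalonate kinase, had 21.9, 25.2, 22.2 and 23.3 CPM in STM2457 libraries, against 28.3, 29.2, 29.0 and 26.9 CPM in DMSO libraries. Every STM2457 library was below every DMSO library for both kinases, whose log2 fold changes were -0.24 (SE 0.04, adjusted p = 0.000692) and -0.29 (SE 0.05, adjusted p = 0.000357). MVK did not pass when replicates 3 and 4 were tested alone (-0.16, adjusted p = 0.0799).

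The smaller decreases stood near the threshold. MVD, which decarboxylates mevalonate diphosphate, had 30.3, 30.6, 31.4 and 33.6 CPM in STM2457 libraries, against 32.2, 33.5, 35.3 and 36.4 CPM in DMSO libraries. The arms overlapped, the log2 fold change was -0.13 (SE 0.05, adjusted p = 0.0428), and MVD kept its call in only 2 of the 8 fits that left out 1 library each, those without DMSO replicate 1 or STM2457 replicate 4. FDPS, farnesyl diphosphate synthase, had 153, 156, 152 and 157 CPM in STM2457 libraries, against 159, 161, 165 and 164 CPM in DMSO libraries. Its arms were close but did not overlap, the log2 fold change was -0.07 (SE 0.02, adjusted p = 0.0321), and the call held in 4 of the 8 fits, being lost without STM2457 replicate 1 or 3 or DMSO replicate 3 or 4. FDPS has near-identical pseudogene copies, as has HSD17B7 among the sterol enzymes, and how reads shared with them were counted is not given in the sources used here.

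The 2 increases among these enzymes were in the isoprenoid steps. IDI1, isopentenyl diphosphate isomerase, had 174, 185, 170.0 and 182 CPM in STM2457 libraries, against 155, 154, 154 and 154 CPM in DMSO libraries. The DMSO libraries were nearly equal and all STM2457 libraries lay above them (1.15-fold, SE of the log2 value 0.03, adjusted p = 7.08e-05). GGPS1, geranylgeranyl diphosphate synthase on the branch toward protein prenylation, had 62.1, 63.4, 56.8 and 61.6 CPM in STM2457 libraries, against 49.6, 48.9, 45.9 and 44.2 CPM in DMSO libraries. It was 1.29-fold higher without overlap (log2 0.37, SE 0.04, adjusted p = 1.76e-05). HMGCS1, the synthase that forms HMG-CoA, had 88.0 to 101 CPM in STM2457 libraries, against 83.5 to 91.4 CPM in DMSO libraries, and did not pass (log2 0.09, adjusted p = 0.0767). HMGCS1 was called higher without STM2457 replicate 3 (0.13, adjusted p = 0.0103) and with a replicate block (0.09, adjusted p = 0.0218).

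Among the 11 squalene and sterol enzymes, 4 rose (SQLE, MSMO1, NSDHL and SC5D), 3 fell (TM7SF2, HSD17B7 and EBP) and 4 did not pass (FDFT1, LSS, CYP51A1 and DHCR7). MSMO1 (ENSG00000052802.13), the oxidase that starts removal of the C4 methyl groups of lanosterol products, had 70.3, 72.5, 67.3 and 69.2 CPM in STM2457 libraries, against 46.6, 46.8, 46.4 and 47.2 CPM in DMSO libraries. It showed the largest RNA increase of the 27 members, 1.49-fold, with no overlap (log2 0.58, SE 0.03, adjusted p = 7.34e-09). NSDHL, the dehydrogenase that acts next on the same C4 groups, had 80.6, 79.2, 79.7 and 78.2 CPM in STM2457 libraries, against 59.0, 56.7, 55.4 and 53.3 CPM in DMSO libraries. It was 1.42-fold higher (log2 0.50, SE 0.03, adjusted p = 6.96e-08), and the lowest STM2457 library stood well above the highest DMSO library. HSD17B7, the ketosteroid reductase that completes a C4 demethylation round, moved the other way. It had 11.3, 10.6, 10.8 and 11.2 CPM in STM2457 libraries, against 13.6, 13.1, 14.1 and 14.03 CPM in DMSO libraries. The arms did not overlap (log2 -0.32, SE 0.05, adjusted p = 0.000137), so the 3 enzymes of this demethylation cycle did not share a direction.

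SQLE (ENSG00000104549.12), the squalene epoxidase that is a rate-controlling enzyme of the sterol branch, had 199.9, 205, 187 and 198 CPM in STM2457 libraries, against 154, 155, 147 and 148 CPM in DMSO libraries. SQLE rose 1.31-fold (log2 0.39, SE 0.03, adjusted p = 5.24e-07), and the arms were well apart. SC5D, the sterol desaturase near the end of the route, had 203, 210.1, 184 and 193 CPM in STM2457 libraries, against 175, 173, 163 and 166 CPM in DMSO libraries. It rose 1.17-fold (SE of the log2 value 0.04, adjusted p = 0.000443), with all STM2457 libraries above the DMSO libraries. TM7SF2, a sterol C14 reductase, had 14.3, 14.5, 15.8 and 16.2 CPM in STM2457 libraries, against 19.0, 19.0, 20.1 and 20.4 CPM in DMSO libraries. This was the largest RNA decrease of the 27 members (log2 -0.37, SE 0.05, adjusted p = 8.24e-05), again without overlap. EBP, the sterol isomerase, had 37.9, 40.3, 39.1 and 39.7 CPM in STM2457 libraries, against 43.3, 43.5, 41.9 and 43.8 CPM in DMSO libraries. EBP fell by 0.14 on the log2 scale (SE 0.03, adjusted p = 0.00385) without overlap, but did not pass with replicates 3 and 4 alone (-0.12, adjusted p = 0.0995).

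The 4 enzymes that did not pass had log2 fold changes of 0.05 for squalene synthase (FDFT1, adjusted p = 0.121), -0.05 for lanosterol synthase (LSS, 0.442), 0.13 for lanosterol demethylase (CYP51A1, 0.195) and 0.06 for the late sterol reductase DHCR7 (0.101). Their arms overlapped in every case. CYP51A1 was counted at only 6.34 ± 0.485 CPM in STM2457 libraries and 5.81 ± 0.461 CPM in DMSO libraries (SD, n = 4 each). In the series table the same gene had an RNA signal of 1954 ± 46.0 in STM2457 libraries and 1893 ± 69.1 in DMSO libraries. Its table signal per CPM was 317, against a median of 15.0 over 11863 genes, and 29 genes (0.244%) were as high or higher. The annotation places CYP51A1-AS1 over it, and what part that overlap plays in the low count was not tested. In all, 15 of the 27 members overlap another annotated gene, ACAT2, IDI1, GGPS1, MVK, FDPS, INSIG1 and STARD4 among the called ones. The kit keeps strand, per the labels, but whether the counting used it is not given in the sources used here, so reads of such pairs could be mixed. MSMO1, NSDHL, SQLE, SC5D, TM7SF2 and MBTPS1 overlap no annotated gene.

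Within SREBP control, INSIG1 and MBTPS1 rose and the other 5 genes did not pass. INSIG1 (ENSG00000186480.13), the retention factor and SREBP target, had 286, 288, 277 and 282 CPM in STM2457 libraries, against 202, 192, 196 and 201 CPM in DMSO libraries. It was 1.43-fold higher (log2 0.52, SE 0.02, adjusted p = 3.61e-09), with the arms far apart and the smallest p of the 27 members. MBTPS1 (ENSG00000140943.17), the site-1 protease, had 208, 206, 206 and 195 CPM in STM2457 libraries, against 172, 175, 172 and 173 CPM in DMSO libraries. It was 1.18-fold higher without overlap (log2 0.23, SE 0.02, adjusted p = 6.63e-06). The RNA of the transcription factors themselves did not pass. SREBF2 had 160.2 to 164 CPM in STM2457 libraries and 162 to 166 CPM in DMSO libraries (log2 -0.01, SE 0.02, adjusted p = 0.677), and SREBF1 had 20.3 to 24.6 CPM and 21.9 to 26.3 CPM in the same order (log2 -0.03, SE 0.07, adjusted p = 0.766). SCAP (log2 -0.04), INSIG2 (-0.04) and the site-2 protease MBTPS2 (0.04) had adjusted p-values of 0.285, 0.426 and 0.366. STARD4, a cytosolic sterol transfer protein, fell by 0.19 on the log2 scale (SE 0.05, adjusted p = 0.0115). It had 29.0, 29.5, 25.0 and 28.9 CPM in STM2457 libraries, against 33.8, 31.7, 30.3 and 32.3 CPM in DMSO libraries. STM2457 replicate 3 was the lowest of all, and without it STARD4 remained called at -0.14 (adjusted p = 0.0155). In bulk libraries, less RNA per cell and fewer cells expressing a gene cannot be told apart.

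The scaling of the RNA libraries decided how many members were called in each direction. With ERCC spike-ins in place of TMM factors, 5 members were higher and 17 lower, where 12.1% of all genes were higher and 47.1% lower, and the median gene shifted by -0.19 on the log2 scale. Without STM2457 replicate 4, the library with the highest spike-in share, that shift was -0.16, with 6 members higher and 13 lower, where 13.6% and 41.6% of all genes were called. MSMO1 (0.38), INSIG1 (0.32), NSDHL (0.31), SQLE (0.19) and GGPS1 (0.17) remained higher, and all 9 members lower with TMM remained lower. IDI1 (0.01), SC5D (0.03) and MBTPS1 (0.04) were no longer called, although MBTPS1 was called at 0.09 (adjusted p = 0.0478) without STM2457 replicate 4. The other 8 of the 17 lower members had not passed with TMM, and FDFT1, DHCR7 and MBTPS2 took the opposite sign. Deviations from the arm means correlated across arms between replicates 1 and 2 (r of 0.156 and 0.111) and between replicates 3 and 4 (0.275 and 0.113), and the labels give no batch. Replicates 1 and 2 alone called 8 members higher and 8 lower, where 24.2% and 20.1% of all genes were called, and replicates 3 and 4 alone called 8 higher and 5 lower, where 20.7% and 15.4% were called. On the series table's RNA signal, limma called 8 members higher and 12 lower, where 27.4% and 34.6% of all genes were called. The changes above are changes relative to the other genes of the library.

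**Figure D2:**
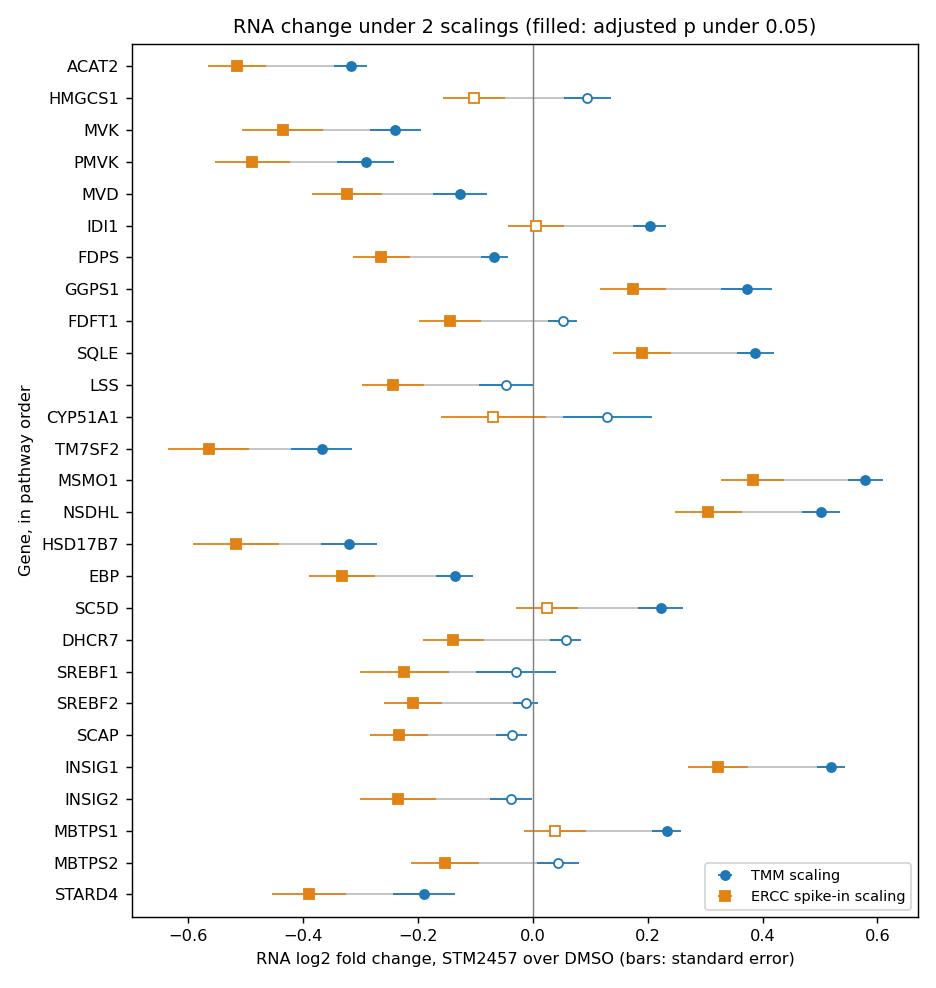
RNA log2 fold change of STM2457 over DMSO for the 27 genes with TMM scaling (blue circles) and ERCC spike-in scaling (orange squares), with standard errors as bars and filled symbols for an adjusted p under 0.05. Each square lies left of its circle by about the shift of the median gene, and MSMO1, INSIG1, NSDHL, SQLE and GGPS1 stay right of 0 with both.

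Ribosome footprints count ribosomes on the coding sequence and so follow both RNA amount and translation. They moved with RNA for the 6 members that were called in footprints. Of the 27 members, 5 rose (MSMO1, INSIG1, SQLE, IDI1 and GGPS1) and 1 fell (ACAT2) in limma on log2(signal + 1), where 9.59% of 10906 genes rose and 6.13% fell, and 21 members did not pass. All 6 had been called in the same direction in RNA. How many of all genes called in footprints were called the same way in RNA was not counted, so this is no trait particular to the members. The median log2 fold change was 0.02 over the members and -0.02 over all genes. The STM2457 libraries lay above both DMSO libraries for 10 members and below them for 6, against 25.7% and 28.4% of all genes, and 11 members overlapped.

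INSIG1 had footprint signals of 3088 and 3018 in STM2457 libraries, against 2021 and 1971 in DMSO libraries. The pairs were far apart relative to the gap within each, and INSIG1 was 1.53-fold higher (log2 0.61, SE 0.10, adjusted p = 9.02e-06). MSMO1 had 1538 and 1327 in STM2457 libraries, against 895 and 877 in DMSO libraries, a 1.61-fold increase (SE of the log2 value 0.13, adjusted p = 6.54e-05). SQLE had 4296 and 4408 in STM2457 libraries, against 3132 and 3388 in DMSO libraries. SQLE was 1.34-fold higher without overlap (SE of the log2 value 0.10, adjusted p = 0.000957), close to its 1.31-fold rise in RNA. ACAT2 had 2936 and 2807 in STM2457 libraries, against 3734 and 3918 in DMSO libraries. It was the only member whose footprints fell past the threshold (log2 -0.41, SE 0.10, adjusted p = 0.0014), and these 4 calls held without any 1 library. ACAT2 without DMSO replicate 2 (log2 -0.38) and SQLE without DMSO replicate 1 (0.36) were only just called.

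The other 2 calls were less stable. IDI1 had footprint signals of 3619 and 2952 in STM2457 libraries, against 2533 and 2453 in DMSO libraries (log2 0.39, SE 0.10, adjusted p = 0.00523). STM2457 replicate 1 was much the higher of its arm, and the call was lost without it (0.24, adjusted p = 0.166) and without DMSO replicate 2 (0.37, adjusted p = 0.0628). GGPS1 had 292 and 246 in STM2457 libraries, against 142 and 169 in DMSO libraries, from only 77, 63, 44 and 35 reads in that order. Its log2 fold change of 0.79 (SE 0.26, adjusted p = 0.0267) passed in 1 of the 4 fits that left out a library, where the lone library of an arm is taken to vary like the rest, namely the one without STM2457 replicate 2. An edgeR test on the recovered footprint reads called 8 members higher and 1 lower, where 10.2% and 5.57% of all genes were called. The 3 it added were sterol enzymes: NSDHL (log2 0.33, adjusted p = 0.0269), SC5D (0.30, adjusted p = 0.0305) and CYP51A1 (0.31, adjusted p = 0.0442). With limma these had 0.30, 0.27 and 0.28 and adjusted p-values of 0.0522, 0.0583 and 0.0879. The limma value of CYP51A1 turned on 1 library, at 0.13 (adjusted p = 0.611) without STM2457 replicate 1 and 0.43 (adjusted p = 0.00851, called) without STM2457 replicate 2. NSDHL was at 0.19 (adjusted p = 0.461) without DMSO replicate 1 and 0.41 (adjusted p = 0.048, called) without DMSO replicate 2, and SC5D was at 0.18 to 0.37 over the 4 fits, with no call.

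Among the members whose RNA fell, the 3 with the largest RNA decreases beside ACAT2 gave footprint values spread around the DMSO level. TM7SF2 had 220.3 and 289 in STM2457 libraries, against 289.7 and 231 in DMSO libraries (log2 -0.04, SE 0.24). HSD17B7 rested on 15 to 32 reads per library and had a log2 fold change of 0.00 with an SE of 0.39, so a decrease of the size seen in RNA was not detectable at this depth. PMVK had 649 and 648 in STM2457 libraries, between the 727 and 564 of the DMSO libraries (log2 0.02, SE 0.16). MVK (log2 -0.36, SE 0.19, adjusted p = 0.216), FDPS (-0.24, SE 0.09, adjusted p = 0.0799) and STARD4 (-0.43, SE 0.24, adjusted p = 0.24) had lower footprints in both STM2457 libraries but did not pass. The footprint arms of MVD (-0.16) and EBP (-0.05) overlapped. SREBF2 had 1523 and 1816 in STM2457 libraries, against 1349 and 1412 in DMSO libraries, and did not pass either (log2 0.27, SE 0.12, adjusted p = 0.13). Without STM2457 replicate 1 the SREBF2 footprints were called higher (0.40, adjusted p = 0.035), and without STM2457 replicate 2 the change was 0.14 (adjusted p = 0.604).

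**Figure D3:**
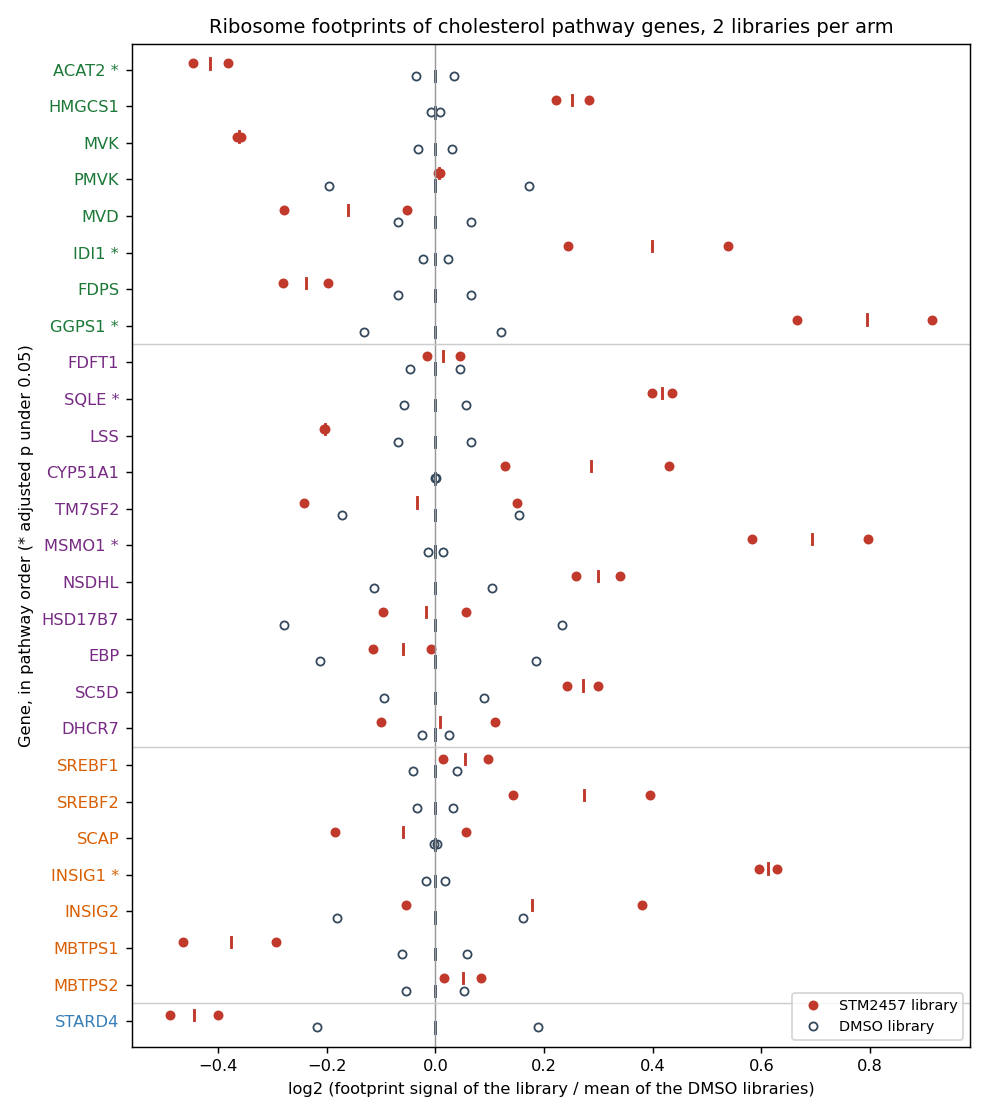
Footprint signal of the 27 genes in each library as log2 of the library's signal over the mean of the DMSO libraries, with filled red points for the 2 STM2457 libraries, open dark points for the 2 DMSO libraries and ticks for the means. Asterisks mark the 6 called genes; GGPS1, MSMO1 and INSIG1 lie farthest right, and ACAT2, MBTPS1 and STARD4 lie on the left with both STM2457 libraries below both DMSO libraries.

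Across the 27 members the RNA and footprint log2 fold changes had a Pearson r of 0.748 and a Spearman rho of 0.741, and 21 (77.8%) had the same sign in both. Over 10864 genes tested in both, r was 0.698, rho 0.636 and the share of equal sign 72.6%. These values describe genes, which are not independent replicates, and the assays come from different libraries. The member farthest from equal change was MBTPS1.

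**Figure D4:**
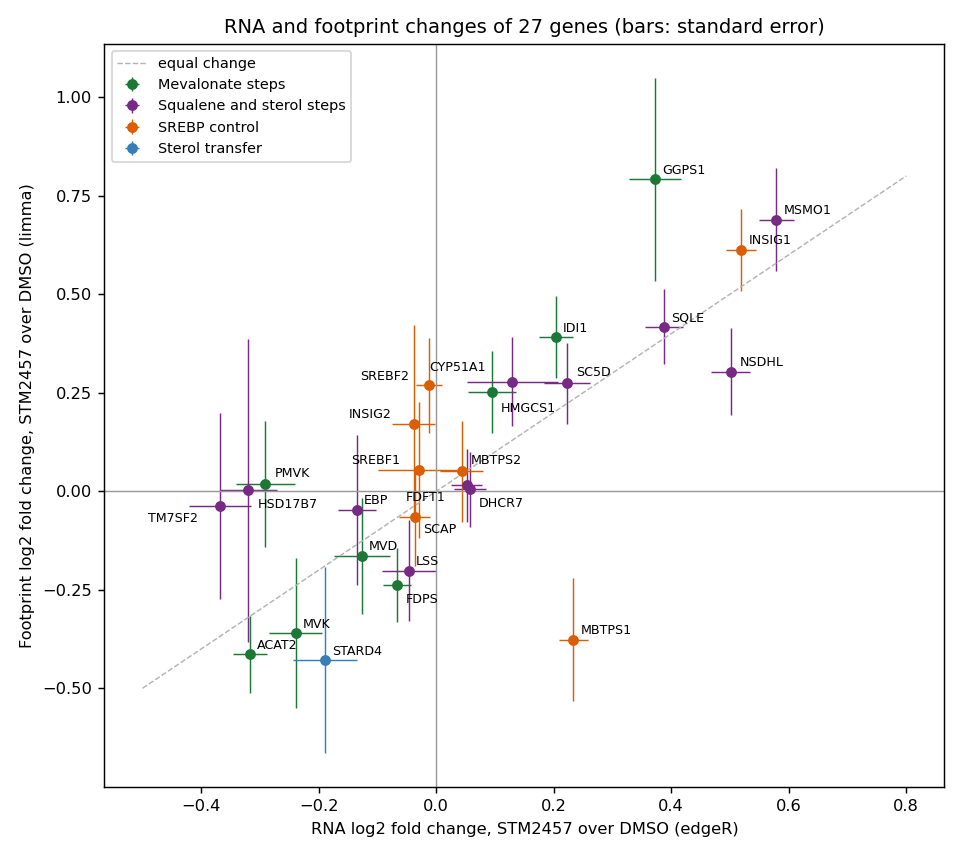
Footprint log2 fold change (limma) against RNA log2 fold change (edgeR), STM2457 over DMSO, 1 point per gene coloured by role with standard errors as bars and a dashed line of equal change. MSMO1, INSIG1, SQLE and ACAT2 lie near the line, whereas MBTPS1 stands in the lower right at an RNA change of 0.23 and a footprint change of -0.38.

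MBTPS1, the site-1 protease that makes the first cut in the SREBP precursors, had higher RNA and lower footprints in STM2457 cells. It had footprint signals of 615 and 547 in STM2457 libraries, against 785 and 723 in DMSO libraries, from 162, 140, 244 and 150 reads in that order. Both STM2457 libraries were below both DMSO libraries, although the footprint difference by itself did not pass (log2 -0.38, SE 0.16, adjusted p = 0.0966). The table's RNA signal of the same gene was 3599 ± 79.7 in STM2457 libraries and 3225 ± 38.5 in DMSO libraries (SD, n = 4 each), in which it was also called higher (log2 0.16). Translational efficiency, the footprint change net of the RNA change, was 1.45-fold lower in STM2457 cells (log2 -0.54, SE 0.11, limma interaction of assay and treatment, adjusted p = 0.0228).

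MBTPS1 was the only one of the 27 members called by efficiency, where 0.807% of 10906 genes were lower and 0.229% higher. No member was called higher, while at an unadjusted p under 0.05 there were 2 higher (GGPS1 and SREBF2) and 1 lower. The share of all genes at an unadjusted p under 0.05 was not counted, here or for the lists below. Such counts therefore cannot be set against all genes. The MBTPS1 call held with the edgeR interaction (-0.57, adjusted p = 0.0033). It rests on 2 footprint libraries per arm. The call was lost when STM2457 replicate 2 (-0.45, adjusted p = 0.172), DMSO replicate 1 (-0.48, adjusted p = 0.198) or DMSO replicate 2 (-0.59, adjusted p = 0.0966) was left out, and held without STM2457 replicate 1 (-0.62, adjusted p = 0.0257). Over the 27 members the median efficiency change was 0.15, against 0.01 over all genes, and 19 of the 27 values were above 0. The share of all genes above 0 was not counted. The 27 values share the same 2 footprint libraries per arm and are not independent, so a common rise in efficiency was not tested.

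**Figure D5:**
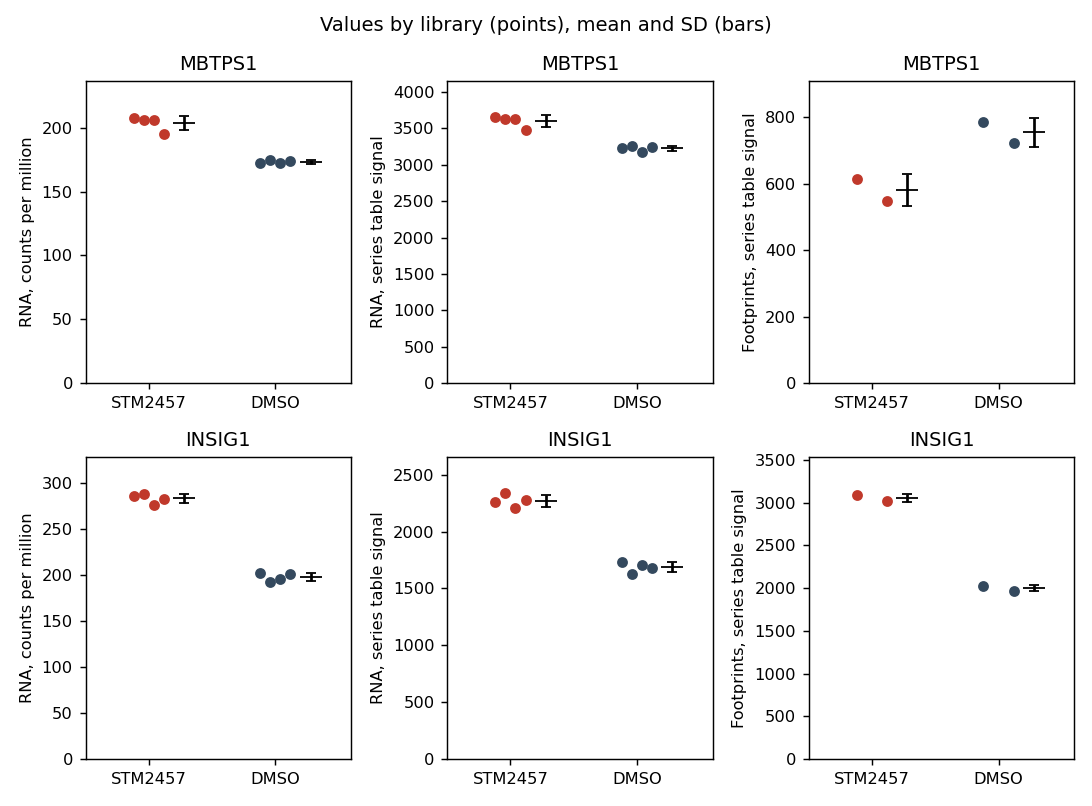
MBTPS1 (top row) and INSIG1 (bottom row) by library, as RNA in CPM, RNA in the table's normalized signal and footprints in the same signal, with red points for STM2457, dark points for DMSO and bars for the mean and SD. INSIG1 is higher in STM2457 in all 3 panels, while MBTPS1 is higher in both RNA panels and lower in footprints, at 615 and 547 in STM2457 against 785 and 723 in DMSO.

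SREBF2, the precursor that the protease cleaves, had the next smallest p. The table's RNA signal, which the limma efficiency fit uses, was lower for SREBF2 in STM2457 libraries. It was 2618 ± 41.0 there and 2782 ± 31.1 in DMSO libraries (SD, n = 4 each). Those arms did not overlap, unlike the CPM arms of SREBF2. Its efficiency change was 0.36 (SE 0.10, adjusted p = 0.148), and it was called higher with the edgeR interaction (0.34, adjusted p = 0.0336), where 1.14% of all genes were called higher and 2.76% lower. It was also called with 1 spread shared by both assays (adjusted p = 0.0148), where 3.11% were called higher and 4.46% lower. Its efficiency change was 0.48 (adjusted p = 0.0658) without STM2457 replicate 1 and 0.23 (adjusted p = 0.642) without STM2457 replicate 2. GGPS1 was called higher only with the shared spread (0.50, adjusted p = 0.028), against an adjusted p of 0.333 with a weight per assay. In the authors' deposited table, the ratio of mean footprint to mean RNA signal of MBTPS1 was 0.160 with STM2457 and 0.234 with DMSO, the lowest of the 27 members in both arms. In the authors' deposited table GGPS1 followed at 0.352 and 0.243, and SCAP at 0.422 and 0.400. MBTPS2, the protease of the second cleavage, was near the other end of the authors' deposited table, at 2.42 with STM2457 and 2.15 with DMSO, against a median of 1.00 and 1.01 over its 12224 genes. The proteases that act in sequence on SREBP thus differed widely in this ratio in both arms. The RNA signal per CPM was 18.1 for MBTPS1 and 8.94 for MBTPS2, against a median of 15.0 over 11863 genes. The size of the gap between the proteases therefore depends on which RNA measure is used.

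Neighbouring pathways were read from lists whose members are known to meet the cholesterol route. Of 12 genes of fatty acid synthesis, which SREBP also controls, 2 rose and 2 fell in RNA, where 26.2% of all genes rose and 21.6% fell. Their log2 fold changes had a median of -0.01, against 0.00 over all genes. SCD, the stearoyl-CoA desaturase, had 981 ± 22.2 CPM in STM2457 cells and 835 ± 23.6 CPM in DMSO cells (SD, n = 4 each; adjusted p = 8.56e-06). The desaturase FADS1 (-0.19) and malic enzyme ME1 (-0.27) fell, and the carboxylase ACACA (0.04) and the synthase FASN (0.00) did not pass. In footprints none of the 12 passed with limma or with edgeR, and 1 (ME1, -0.39) had an unadjusted p under 0.05 with limma. With spike-in scaling 0 were higher and 9 lower, where 12.1% of all genes were higher and 47.1% lower, and SCD was at 0.04.

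Of 11 genes of sterol sensing and protein degradation at the endoplasmic reticulum, 6 rose and 2 fell, where 26.2% of all genes rose and 21.6% fell, with a median of 0.10 against 0.00 over all genes. RNF139, a ubiquitin ligase of the endoplasmic reticulum membrane, had 77.0 ± 3.57 CPM in STM2457 cells and 44.9 ± 0.928 CPM in DMSO cells (log2 0.78, SE 0.04, adjusted p = 2.69e-09). This exceeded the increase of every member of the cholesterol route, and RNF139 remained higher with spike-in scaling (0.58), where 2 of the list were higher and 5 lower, against 12.1% and 47.1% of all genes. FAF2, which recruits the VCP segregase, was called at 0.26 but not with spike-in scaling (0.07). In footprints 2 of the list rose and 2 fell with limma, where 9.59% of all genes rose and 6.13% fell. FAF2 (0.28) was among the higher and ERLIN2 (-0.37) and the conjugating enzyme UBE2G2 (-0.31) were the lower, named after their values were seen, whereas RNF139 (0.41, adjusted p = 0.0911) did not pass. An edgeR test on the footprint reads called 2 of the list higher and 0 lower, where 10.2% and 5.57% of all genes were called, against 3 lower at an unadjusted p under 0.05 with limma.

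Of 13 genes of sterol export, esterification and transfer, 4 rose and 1 fell, where 26.2% of all genes rose and 21.6% fell, with a median of 0.07. Of the 12 tested in footprints 0 passed with limma or edgeR and 1 had an unadjusted p under 0.05 with limma. TMEM97, a sterol-binding membrane protein (0.17), and MYLIP, a ubiquitin ligase (0.26), rose, and the sterol transporter GRAMD1B fell (-0.29). With spike-in scaling 0 were higher and 7 lower, where 12.1% of all genes were higher and 47.1% lower. TMEM97 and MYLIP were then at -0.03 and 0.06, and GRAMD1B remained lower. Of 10 genes that use mevalonate products for dolichol, ubiquinone and prenylation, 3 rose and 3 fell, where 26.2% and 21.6% of all genes did, with a median of -0.01. DHDDS, a subunit of the dolichol-forming prenyltransferase, had 45.1 ± 1.14 CPM in STM2457 cells and 35.5 ± 0.87 CPM in DMSO cells (log2 0.35, adjusted p = 2.23e-06). FNTA, the shared subunit of the farnesyl and geranylgeranyl transferases, had 39.6 ± 1.06 CPM in STM2457 cells and 49.99 ± 1.26 CPM in DMSO cells (log2 -0.34, adjusted p = 2.47e-06). FNTA was also the only gene of this list called in footprints (-0.44, limma adjusted p = 0.0488), where 6.13% of all genes fell, a call that edgeR on footprint reads did not make, and PDSS1 of ubiquinone synthesis fell in RNA (-0.19). With spike-in scaling DHDDS alone was higher and 6 were lower, where 12.1% of all genes were higher and 47.1% lower. By efficiency the weighted limma fit called 0 of the 45 genes tested in these 4 lists, with 5 at an unadjusted p under 0.05, and the edgeR interaction called 1 higher and 1 lower, where 1.14% and 2.76% of all genes were called.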

How the data were processed

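The authors deposited 8 RNA-seq files of raw counts by gene, including 92 ERCC rows, and the series table holds the authors' normalized signal per library for RNA and footprints, per the file headers. Per the submitters' processing notes, the tools were STAR 2.7.3a, featureCounts of Subread 2.0.3, SAMtools 1.10, bedtools 2.29.2, FastQC 0.11.9, UMI-tools 1.1.2 and DESeq2, with the GRCh38.p12 build and no stated roles. The table's efficiency values are the authors' ratio of mean footprint to mean RNA signal, and their change is deposited as log2. The authors' RNA means equal the mean of replicates 1 to 3. Footprint signals were whole multiples of a step per library (100% within 0.1 of a whole read), so reads were recovered.

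RNA was tested with edgeR 4.0.16 in R 4.3.3 (TMM, filterByExpr, quasi-likelihood, ERCC left out). Footprints and efficiency were tested with limma 3.58.1 on log2(signal + 1), a scale that understates changes of low genes, for genes with a mean of at least 10 footprint reads, and efficiency with a weight per assay (1.95 for RNA, 0.263 for footprints). The fits were also run on simulated data with a fixed spread and few changed genes, unlike these data, and no outcome of that run is used here. Standard errors of edgeR values are the log2 fold change over the square root of F. Counts and reads carry counting error, and RNA replicates number 4 and footprint replicates 2 per arm. Symbols matched 60261 of the 60662 genes. The 27 members, the lists and the tests were chosen with earlier results of these data known. All members were named, those called in full, with up to 3 genes per list by smallest RNA p, and some genes of the lists are not reported here by name.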

Additional observations from a re-analysis of the deposited data

Results flagged for a closer look

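MBTPS1 RNA in STM2457 replicate 4 was 195.03 CPM, while the other 3 STM2457 libraries lay between 206 and 208 CPM, a gap that took 0.835 of the arm's range, above Dixon's critical value for 4 samples. All 4 remained above the DMSO libraries, and without this library MBTPS1 RNA was higher by 0.25 on the log2 scale. STARD4 RNA in STM2457 replicate 3 was 24.96 CPM, while the other 3 lay between 28.9 and 29.5 CPM, and that gap took 0.884 of the range. These were 2 of 54 groups examined, and chance gives about 1 in 20.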

How the results depend on the processing

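With ERCC scaling the RNA counts were 5 higher and 17 lower in place of 8 and 9, and FDFT1 (-0.14), DHCR7 (-0.14) and MBTPS2 (-0.15) reversed and were called lower. A fold of at least 1.5 left 0 higher and 0 lower, and replicates 3 and 4 alone gave 5 lower. Leaving out 1 library gave 8 to 9 higher and 7 to 9 lower in RNA, 4 to 6 higher and 1 lower in footprints, and 0 higher and 0 to 1 lower by efficiency. Footprints higher numbered 8 with edgeR on recovered reads. Efficiency higher numbered 2 with the shared spread and 1 with the edgeR interaction. The causes of these shifts were not tested. DESeq2 1.42.0 gave 8 higher and 9 lower in RNA. Shares of all genes are not given here for DESeq2, the 1.5-fold threshold, the fits without 1 library or the replicate block. Counts from those settings describe the members only. The RNA signal of the series table, an alternative added after seeing the data as was ERCC scaling without STM2457 replicate 4, gave 8 higher and 12 lower with limma.

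Over single members and settings, the verdict matched in 394 RNA, 205 footprint and 264 efficiency cases, a call was lost in 21, 5 and 3, and one was gained in 14, 6 and 3. Same-numbered replicates of the arms had correlations of their RNA deviations of 0.151, 0.227, 0.148 and 0.0763, and not every library correlated best with its own number. Footprints gave 0.0064, but with 2 libraries per arm the deviations mirror each other, so this value cannot show or exclude pairing. These correlations do not decide whether the numbers pair the libraries. A replicate block gave 9 higher and 9 lower in RNA, 5 and 1 in footprints and 0 and 1 by efficiency. Depth limits footprints of low members such as HSD17B7, and 2 footprint libraries per arm limit efficiency.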
